A study of Homo sapiens with 2 samples.

Results

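Tetraspanins are small membrane proteins, and 32 of their genes were read here, of 19775 genes measured in all. The members were taken by name, as every TSPAN gene with a number together with CD9, CD37, CD53, CD63, CD81, CD82, CD151, UPK1A, UPK1B, ROM1 and PRPH2. Of the 33 human genes with these names only TSPAN19 was not analysed here. HCC4006ER cells and the HCC4006 cells they came from were compared on 1 Affymetrix HG-U133 array per cell line. Both are lines of the same non-small cell lung cancer (NSCLC) and share an EGFR exon 19 deletion. HCC4006ER cells are a bulk population, not a single clone, made resistant by growth in rising erlotinib, an EGFR inhibitor, and their label gives an EMT (epithelial-mesenchymal transition) phenotype. HCC4006 cells are labelled erlotinib sensitive. Both lines grew for 48 hours with no added agent, and each array held a mixture of 3 RNA preparations.

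Tetraspanins pass through the membrane repeatedly, and through a large extracellular loop they bind integrins, proteases, receptors and one another, so that they gather their partners into patches of the membrane often called the tetraspanin web. CD9, CD81 and CD151 sit mainly at the surface of epithelial cells, CD63 in late endosomes and on exosomes. Some members serve a single specialised membrane, such as the uroplakins of the bladder lining or the disc proteins of photoreceptors, and CD37 and CD53 belong to leukocytes.

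Each gene was read from its brightest probe set, ranked by mean log2 signal. The values are MAS5 signals on a linear scale, and a fold is the signal on the HCC4006ER array over that on the HCC4006 array. A signal was taken as above background when it exceeded the 95th percentile of 127 probe sets for olfactory and bitter taste receptors, which was 91.6 on the HCC4006ER array and 96.2 on the HCC4006 array. For a gene with its dimmer signal under background, that level took the place of the dim signal and the fold is a lower bound, written "at least". A gene whose brighter signal lay close to that level counts as within 1.5-fold whatever its dim signal, so its fold is undetermined. Genes under background on both arrays get no fold. The threshold of 1.5-fold is that of the study's methods. With 1 array per cell line there was no replicate and no test, so every difference is a value for these 2 arrays. Where a gene had several probe sets above background on both arrays, their log2 folds had a pooled SD of 0.27 over 5264 genes. That figure leaves out dimmer probe sets and variation between arrays and cultures.

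As a check of the labels, all 8 epithelial markers were above background on both arrays and 0 lay past 1.5-fold. E-cadherin (CDH1) read 11041 on the HCC4006ER array and 10469 on the HCC4006 array, vimentin (VIM) 9057 and 5926, a 1.53-fold difference, and ZEB1 53.1 and 42.5, under background on both. The E-cadherin and ZEB1 signals thus did not show the labelled EMT phenotype. "HCC4006ER array" and "HCC4006 array" therefore mean the arrays labelled so, and every fold given here, with its direction, rests on those labels. Whether the deposited signals are those of the cells the labels describe was not tested. Of 10 fibroblast markers 0 were above background on the HCC4006ER array and 1, THY1, on the HCC4006 array. Of 7 endothelial markers 1 (PECAM1) was above background on each array. Of 6 lung lineage markers measured, 2 (SFTPB and SFTPC) were above background on the HCC4006ER array and 2 (SFTPC and NAPSA) on the HCC4006 array. Among the rest, NKX2-1 read 7.98 on the HCC4006ER array and 65.4 on the HCC4006 array, under background on both.

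Of the 32 tetraspanins, 21 were above background on an array and 11 on neither. Among the 21, TSPAN1, TSPAN8, TSPAN13, TSPAN11, TSPAN12 and CD82 were lower past 1.5-fold on the HCC4006ER array, TSPAN14 was higher, and 14 lay within 1.5-fold. The share of lower tetraspanins was 28.6%, against 11.2% of all 11896 genes above background, and the share of higher ones was 4.76%, against 7.99%. The median log2 fold of the 21 was -0.34, against -0.04 over all genes above background. At any size 14 of the 21 were lower (66.7%), against 54.0% of all genes. In these bulk cultures, fewer cells expressing a gene and less of its RNA per cell cannot be told apart.

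**Figure D1:**
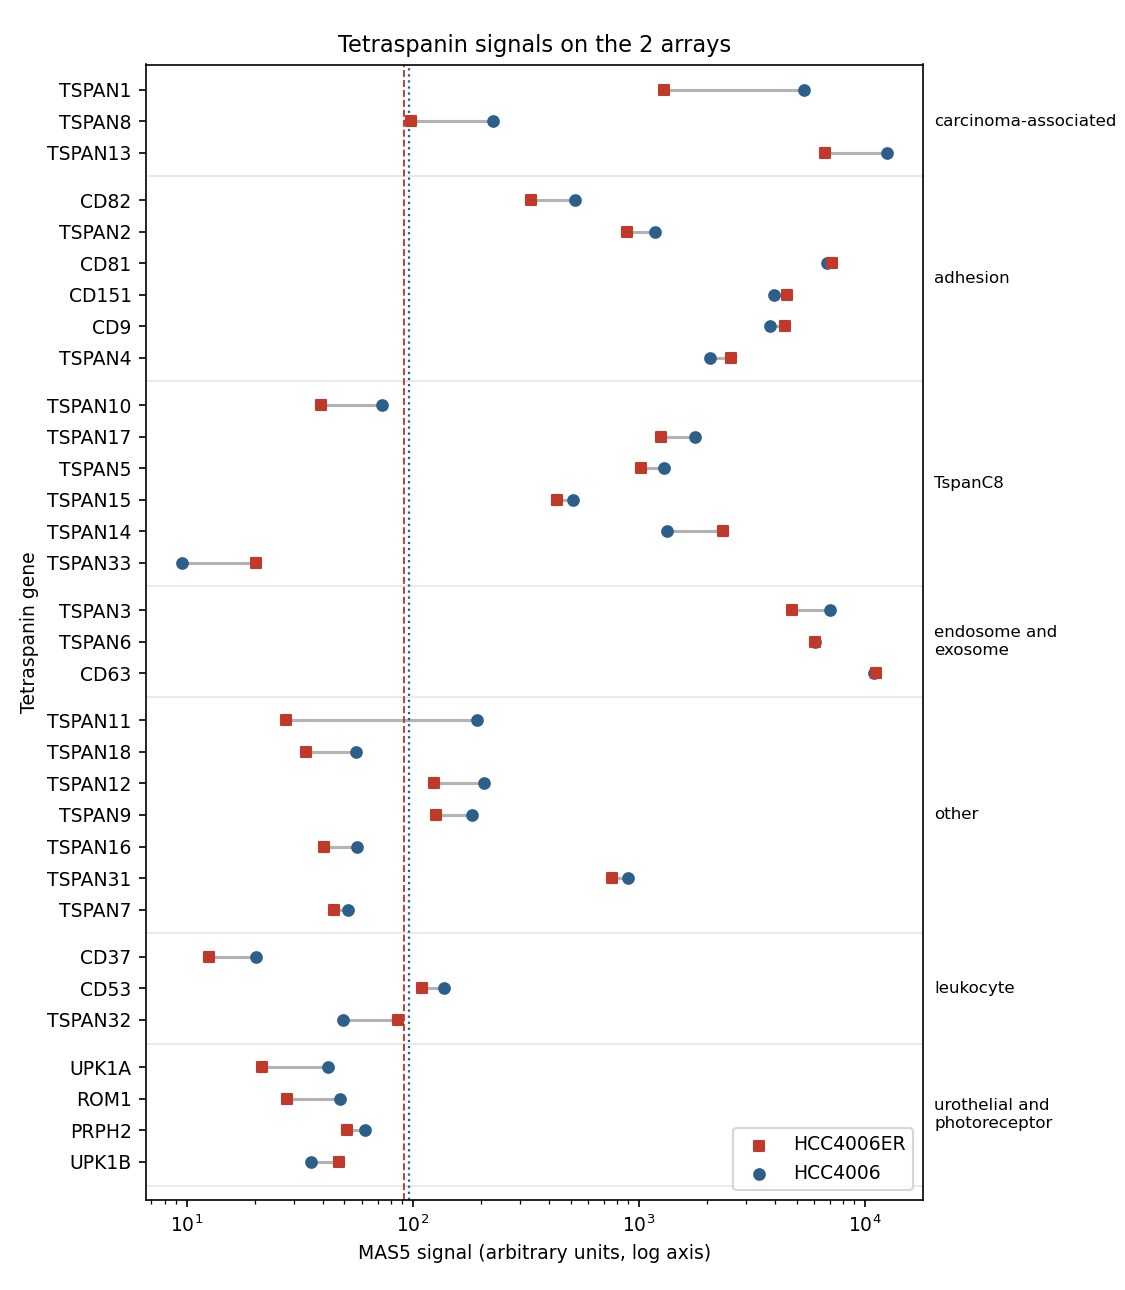
MAS5 signal on a log axis for the 32 tetraspanin genes, grouped by role, with a red square for the HCC4006ER array and a blue circle for the HCC4006 array. The red dashed line is the background level of 91.6 on the HCC4006ER array and the blue dotted line that of 96.2 on the HCC4006 array; the squares of TSPAN1, TSPAN8 and TSPAN13 lie well to the left of their circles, and those of CD63, CD81 and TSPAN6 nearly cover them.

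The 3 carcinoma-associated members, TSPAN1, TSPAN8 and TSPAN13, were all lower on the HCC4006ER array. They were grouped with the low TSPAN1 value already known, so the count is not independent evidence of a direction. TSPAN1, a surface tetraspanin raised in several carcinomas, read 1296 on the HCC4006ER array and 5382 on the HCC4006 array, 4.15-fold lower. It was the largest fold among tetraspanins above background on both arrays, and TSPAN1 stayed bright on each. TSPAN13, known as NET-6, read 6712 on the HCC4006ER array and 12591 on the HCC4006 array, 1.88-fold lower. TSPAN8, a tumour antigen that is also carried on exosomes, was far closer to background, at 98.2 on the HCC4006ER array and 227 on the HCC4006 array. Its fold was 2.31, with the HCC4006ER signal barely over the level of 91.6. Each of these genes had 1 probe set, so no other reading of them was available.

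Promoter sequences of these 3 genes, all lower, are shown because ZEB1, the factor the study is about, binds the E-box CACCTG. On the other strand it reads CAGGTG. ZEB1 itself was under background on both arrays, at 53.1 on the HCC4006ER array and 42.5 on the HCC4006 array. Whether it acts on these genes was not tested. The 250 bases before the start of transcription were searched on both strands in the RefSeq promoters of GRCh38.p14, which matched 24 of the 32 tetraspanins. The windows are chr1:46174837-46175086 for TSPAN1 (plus strand), chr7:16753505-16753754 for TSPAN13 (plus strand) and chr12:71158000-71158249 for the first of 2 listed starts of TSPAN8 (minus strand). Each runs 5′ to 3′ toward the start, and capitals mark the E-box.
TSPAN1: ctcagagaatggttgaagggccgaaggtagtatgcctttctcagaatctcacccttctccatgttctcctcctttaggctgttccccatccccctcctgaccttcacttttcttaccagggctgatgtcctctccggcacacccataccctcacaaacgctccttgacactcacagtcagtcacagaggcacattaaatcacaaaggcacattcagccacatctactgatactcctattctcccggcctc
TSPAN13: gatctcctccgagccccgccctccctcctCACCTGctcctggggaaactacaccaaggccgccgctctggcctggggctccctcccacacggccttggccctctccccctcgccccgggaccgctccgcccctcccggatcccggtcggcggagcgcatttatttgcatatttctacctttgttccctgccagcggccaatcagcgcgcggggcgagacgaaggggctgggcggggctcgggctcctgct
TSPAN8: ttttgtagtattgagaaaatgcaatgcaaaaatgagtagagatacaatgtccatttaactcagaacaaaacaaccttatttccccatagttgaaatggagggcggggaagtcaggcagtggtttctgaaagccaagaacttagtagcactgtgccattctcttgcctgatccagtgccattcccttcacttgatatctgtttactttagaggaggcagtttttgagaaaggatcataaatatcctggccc

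TSPAN13 held 1 E-box, which began 221 bases before the start, and TSPAN1 and TSPAN8 held 0 in these windows. Among the 6 lower tetraspanins 1 had an E-box, among the 10 matched members within 1.5-fold 4 did, and the higher TSPAN14 had 0. Over all members matched the share was 37.5% (9 of 24), and over all 27305 genes with a promoter 20.6%, with several starts counted for some genes. The windows also differed in base composition. The CG dinucleotide occurred 22 times before TSPAN13, 4 times before TSPAN1 and 1 time before this start of TSPAN8, where the median over 35116 windows was 11. A match describes letters and says nothing of binding in these cells.

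Of the 6 adhesion tetraspanins 1 (16.7%), CD82, was lower past 1.5-fold, where 11.2% of all genes above background were. The other 5 lay within it, and the median log2 fold of the 6 was 0.13. A group of 6 is too small to compare with that share. CD9, which tunes cell adhesion and fusion, read 4444 on the HCC4006ER array and 3798 on the HCC4006 array (log2 fold 0.23). CD81, best known from the B cell co-receptor and as a hepatitis C virus receptor, read 7206 and 6836 (log2 fold 0.08). CD151, the close partner of laminin-binding integrins, read 4532 on the HCC4006ER array and 3965 on the HCC4006 array (log2 fold 0.19). These 3 log2 folds are smaller than the SD of 0.27 between probe sets. TSPAN4, a component of migrasomes, read 2559 and 2075, a log2 fold of 0.30, with 0.13 in its other probe set.

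CD82, known as KAI1, a metastasis suppressor that restrains EGFR and integrin signalling, read 336 on the HCC4006ER array and 525 on the HCC4006 array, 1.56-fold lower. A second CD82 probe set read 168 and 231, a log2 fold of -0.46 against -0.64 in the first. The gene passed 1.5-fold only by the first, whose name marks matches to several transcripts. It did not pass with the mean of both, with such probe sets left out or under median scaling of the arrays. TSPAN2, known from oligodendrocytes, read 884 on the HCC4006ER array and 1187 on the HCC4006 array, and its 3 probe sets had log2 folds of -0.51 to -0.25. Within this group, then, CD9, CD81, CD151 and TSPAN4 read slightly higher on the HCC4006ER array, CD82 and TSPAN2 lower.

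The TspanC8 tetraspanins, named for the number of cysteines in the large loop, escort the protease ADAM10 out of the endoplasmic reticulum and steer it to substrates such as Notch and cadherins. TSPAN14 was the only tetraspanin higher past 1.5-fold. It read 2352 on the HCC4006ER array and 1340 on the HCC4006 array, 1.75-fold higher, and its second probe set read 1651 and 1055, a log2 fold of 0.65. Both probe sets passed the threshold. TSPAN17 read 1257 on the HCC4006ER array and 1773 on the HCC4006 array, a log2 fold of -0.50. TSPAN5 read 1021 and 1296, and its 3 probe sets lay between -0.52 and -0.28. TSPAN15, which directs ADAM10 to N-cadherin, read 435 on the HCC4006ER array and 511 on the HCC4006 array (log2 fold -0.23). TSPAN14 thus lay on the opposite side of 0 from the other 3 TspanC8 members above background. TSPAN10 and TSPAN33 were not above background, at 39.5 and 20.3 on the HCC4006ER array and 73.1 and 9.51 on the HCC4006 array. ADAM10 itself read 6204 on the HCC4006ER array and 6609 on the HCC4006 array, and its 3 probe sets had log2 folds of -0.33 to -0.09.

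**Figure D2:**
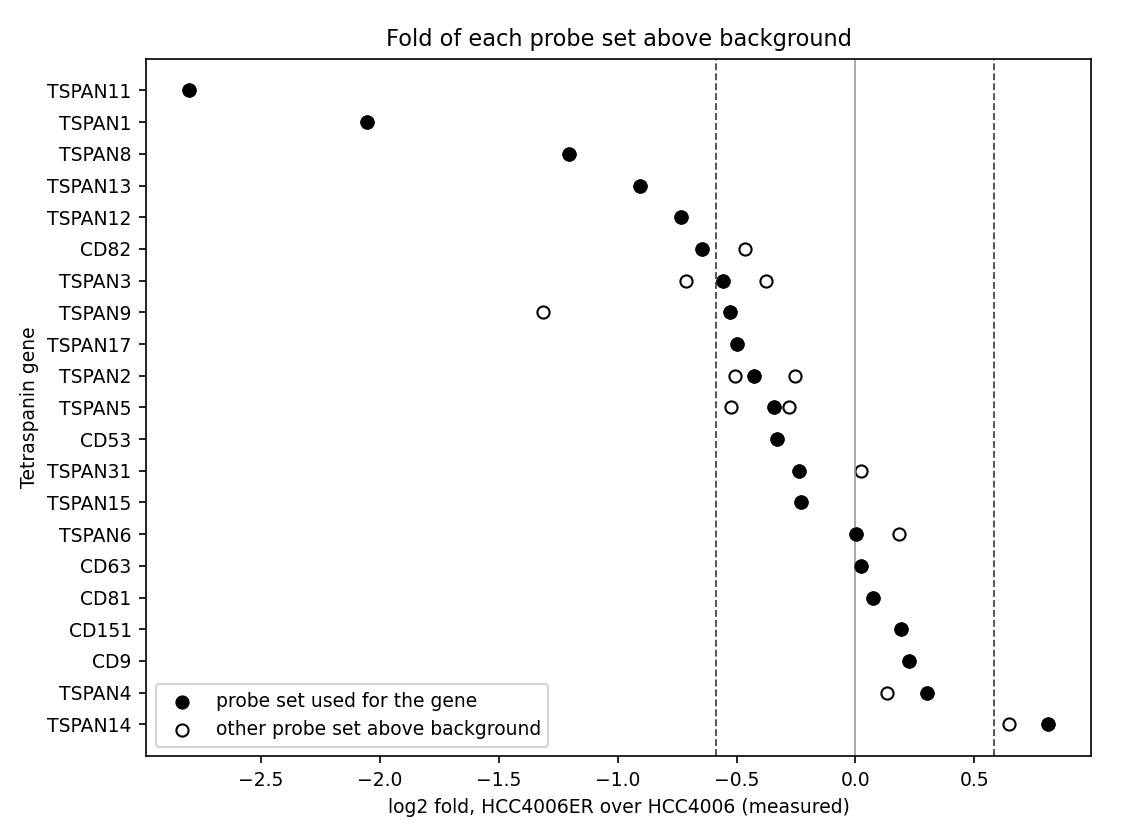
Measured log2 fold, HCC4006ER over HCC4006, of every probe set above background on an array for the 21 tetraspanins, ordered by the probe set used for the gene (filled) with the others open. Dashed lines mark 1.5-fold; both probe sets of TSPAN14 lie right of the upper line, the 2 of CD82 lie on either side of the lower line, and TSPAN11 is drawn at its measured -2.80, a value with its HCC4006ER signal under background.

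Several probe sets above background were available for 9 of the 21 genes, and in 8 of these they lay in 1 direction. The exception was TSPAN31, a gene next to CDK4 that is co-amplified with it in sarcomas, at 765 on the HCC4006ER array and 900 on the HCC4006 array, with log2 folds of -0.24 and 0.02. For TSPAN6 the direction rests on log2 folds of 0.00 and 0.18. Of the members past 1.5-fold, only CD82 and TSPAN14 are among the 9. The matching share over all genes was not computed, so the count of 8 lends no support to the folds. The other 12 genes, among them TSPAN1, TSPAN8, TSPAN11, TSPAN12 and TSPAN13, rested on a single probe set above background.

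Of the endosome and exosome members, CD63 and TSPAN6 hardly differed and TSPAN3 lay just inside the threshold. CD63, the standard marker of late endosomes and exosomes, read 11231 on the HCC4006ER array and 11034 on the HCC4006 array, a log2 fold of 0.03. TSPAN6 read 6049 and 6032, with 0.00 in this probe set and 0.18 in the other. TSPAN3 read 4777 on the HCC4006ER array and 7019 on the HCC4006 array, 1.47-fold lower, and a second bright probe set read 2541 and 4170, a log2 fold of -0.71. A dimmer probe set had -0.38. All 3 were lower on the HCC4006ER array, and only the second was past 1.5-fold.

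Among the remaining members TSPAN11 and TSPAN12 were lower past 1.5-fold, at low signals. TSPAN11 read 27.6 on the HCC4006ER array, under background, and 193 on the HCC4006 array, so it was at least 2.10-fold lower. TSPAN12, a co-receptor that strengthens Norrin signalling through FZD4, read 124 on the HCC4006ER array and 206 on the HCC4006 array, 1.66-fold lower, and its other 2 probe sets were under background. TSPAN9, known from platelets, read 128 on the HCC4006ER array and 184 on the HCC4006 array (1.44-fold lower). A dimmer TSPAN9 probe set had a measured log2 fold of -1.32, with its HCC4006ER signal of 53.7 under background. All 4 of these members above background, TSPAN31 included, read lower on the HCC4006ER array in the probe set used. So did 54.0% of all genes above background, at any size. The other TSPAN31 probe set had a log2 fold of 0.02. TSPAN7, known from neurons, TSPAN16 and TSPAN18 were not above background, with signals of 33.7 to 44.8 on the HCC4006ER array and 51.7 to 56.6 on the HCC4006 array.

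Members that belong to other tissues were mostly not above background. CD53 of leukocytes was faintly above background, at 110 on the HCC4006ER array and 138 on the HCC4006 array (log2 fold -0.33), in 1 of its 3 probe sets. CD37 and TSPAN32, also of blood cells, were not above background on either array. TSPAN32 came close on the HCC4006ER array, at 86.1 against the level of 91.6, and read 49.2 on the HCC4006 array. PTPRC, the pan-leukocyte marker CD45, read 31.8 on the HCC4006ER array and 46.9 on the HCC4006 array, under background. Of 11 leukocyte markers measured, 2 (CD79A and CSF1R) were above background on the HCC4006ER array and 3, with CD3E added, on the HCC4006 array. UPK1A and UPK1B, the uroplakins of bladder epithelium, read 21.6 and 47.1 on the HCC4006ER array and 42.1 and 35.6 on the HCC4006 array. PRPH2 and ROM1, which shape photoreceptor discs, read 51.3 and 27.8 on the HCC4006ER array and 61.8 and 47.8 on the HCC4006 array. None of these 4 was above background, so no fold is given for them.

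Of the 20 listed partners of tetraspanins 18 were above background, and by the background rule all 18 counted as within 1.5-fold. For UPK2 the fold is undetermined. It read 93.4 on the HCC4006ER array and 53.4 on the HCC4006 array, a measured 1.75-fold. With the dim signal at the background level its log2 fold was -0.04. UPK3B, at 116 and 81.6, also had its HCC4006 signal under background. Most genes did: of all 11896 above background, 7.99% were higher and 11.2% lower past it. The median log2 fold of the partners was 0.04 (0.02 with dim signals at the background level). It was -0.34 for the tetraspanins and -0.04 for all genes above background. ITGA3 and ITGA6, the laminin receptor subunits that bind CD151, read 1870 and 3876 on the HCC4006ER array and 2403 and 5139 on the HCC4006 array, log2 folds of -0.36 and -0.41. Their shared subunit ITGB1 read 15005 on the HCC4006ER array and 13222 on the HCC4006 array (log2 fold 0.18). The immunoglobulin proteins IGSF8 and PTGFRN, which bind CD9 and CD81 directly, read 262 and 2277 on the HCC4006ER array and 258 and 1916 on the HCC4006 array. The 2 PTGFRN probe sets lay in opposite directions, with log2 folds of 0.25 and -0.34. ITGB1 had 0.35 and 0.42 in its other probe sets above background, and ITGA6 -0.52. EGFR, which CD82 restrains, read 4078 and 5025, a log2 fold of -0.30. ZDHHC2, a palmitoyltransferase of CD9 and CD151, had the highest log2 fold among partners above background on both arrays, 0.49. FZD4, LRP5 and NDP, the receptors and ligand that work with TSPAN12, had log2 folds of -0.37, -0.31 and -0.37.

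Of 5 measured L6 family genes, which resemble tetraspanins in outline but are not related to them by sequence, TM4SF1 and TM4SF18 were above background. With 2 genes above background, the family is too small to compare with the 11.2% of all genes lower past 1.5-fold. TM4SF18 read 1259 on the HCC4006ER array and 3542 on the HCC4006 array, 2.81-fold lower, with a log2 fold of -1.35 in its other probe set. TM4SF1, a marker of many carcinomas, read 8201 and 9325 (log2 fold -0.19), with -0.49 and -0.47 in the 2 other probe sets above background. Of 14 exosome genes above background 1 was higher (7.14%), 1 lower (7.14%) and 12 within 1.5-fold, with a median log2 fold of 0.09. Among all genes above background 7.99% were higher and 11.2% lower. With 1 gene in each direction the list is too small to compare with these shares. RAB27A, the small GTPase that docks exosome-bearing compartments at the membrane, read 1556 on the HCC4006ER array and 2939 on the HCC4006 array, 1.89-fold lower, and its 5 probe sets had log2 folds of -1.03 to -0.33. STAM, an ESCRT adaptor that sorts cargo into vesicles, read 1715 and 1054, 1.63-fold higher in its 1 probe set. All these RAB27A and STAM probe sets have names that mark matches to several transcripts. Neither gene is counted when such probe sets are left out. The cargo adaptor syntenin (SDCBP) read 4981 on the HCC4006ER array and 5868 on the HCC4006 array, and TSG101 4339 and 3602.

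**Figure D3:**
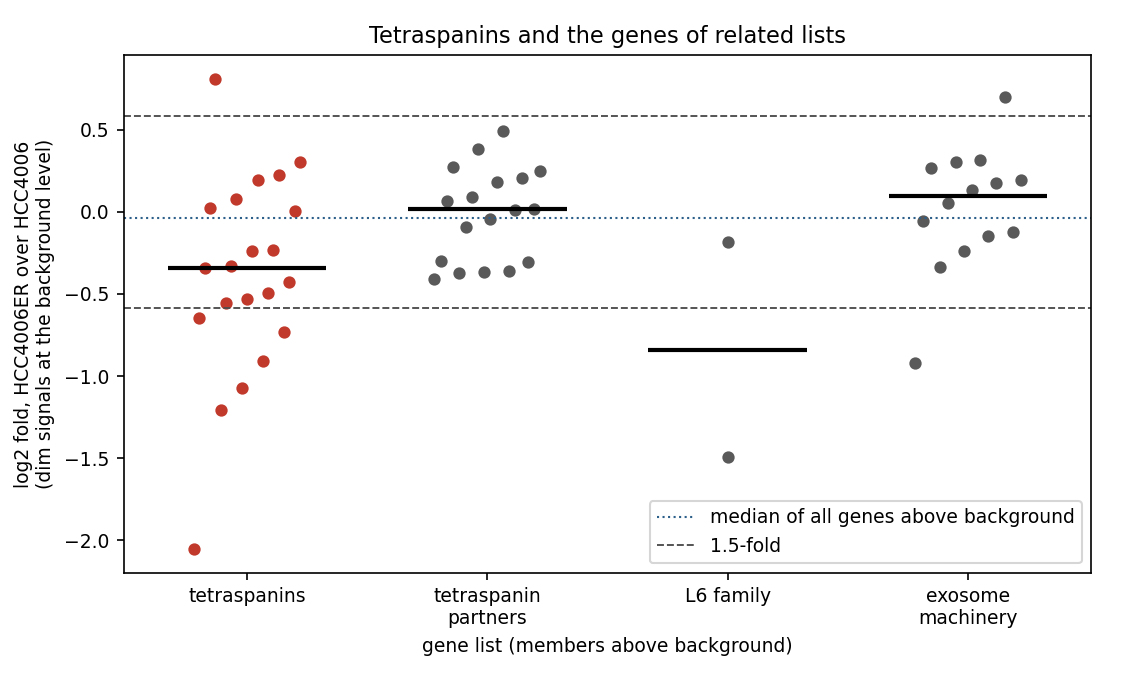
Log2 fold, HCC4006ER over HCC4006, with dim signals at the background level, for members above background of the tetraspanins (red) and 3 related lists (grey). Each point is 1 gene, black bars are medians (-0.34, 0.02, -0.84 and 0.09 from left to right), the dotted line is the median of all genes above background and the dashed lines mark 1.5-fold; 0 partners lie past them. UPK2 is drawn at -0.04, where its measured log2 fold was 0.81.

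The tetraspanins past 1.5-fold were scattered over chromosomes 1, 7, 10, 11 and 12, with TSPAN12 and TSPAN13 on chromosome 7 and TSPAN8 and TSPAN11 on chromosome 12. Examined after their values were seen, the 3 nearest measured genes on each side of each, in RefSeq order, gave 42 neighbours, of which 25 were above background. Of these 4 were lower past 1.5-fold, 2 higher and 19 within, where 11.2% of all genes above background were lower and 7.99% higher. The 25 genes, picked around members already past 1.5-fold, are too few to compare with these shares. AGR2, a protein disulfide isomerase of mucus-secreting epithelia and the next gene after TSPAN13, read 1299 on the HCC4006ER array and 4347 on the HCC4006 array, 3.35-fold lower. PIK3R3, a regulatory subunit of phosphoinositide 3-kinase that lies next to TSPAN1, read 334 on the HCC4006ER array and 874 on the HCC4006 array, 2.62-fold lower, while POMGNT1 on the other side of TSPAN1 read 911 and 879. Beside TSPAN8 the tyrosine phosphatases PTPRB and PTPRR were higher, 3.25-fold and 2.21-fold, and the potassium channel subunit KCNMB4 was 1.83-fold lower. ANKMY2, on the other side of TSPAN13 from AGR2, was 1.52-fold lower. BZW2, between ANKMY2 and TSPAN13, read 7112 on the HCC4006ER array and 9925 on the HCC4006 array, within 1.5-fold (log2 fold -0.48). LOC101927609, beyond AGR2, had a log2 fold of 0.17. No neighbour above background of TSPAN11, TSPAN12, CD82 or TSPAN14 lay past 1.5-fold by the background rule. Among them, WNT16 beside TSPAN12 read 94.5 on the HCC4006ER array and 58.7, under background, on the HCC4006 array. TP53I11 beside CD82 read 62.6, under background, and 119.

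**Figure D4:**
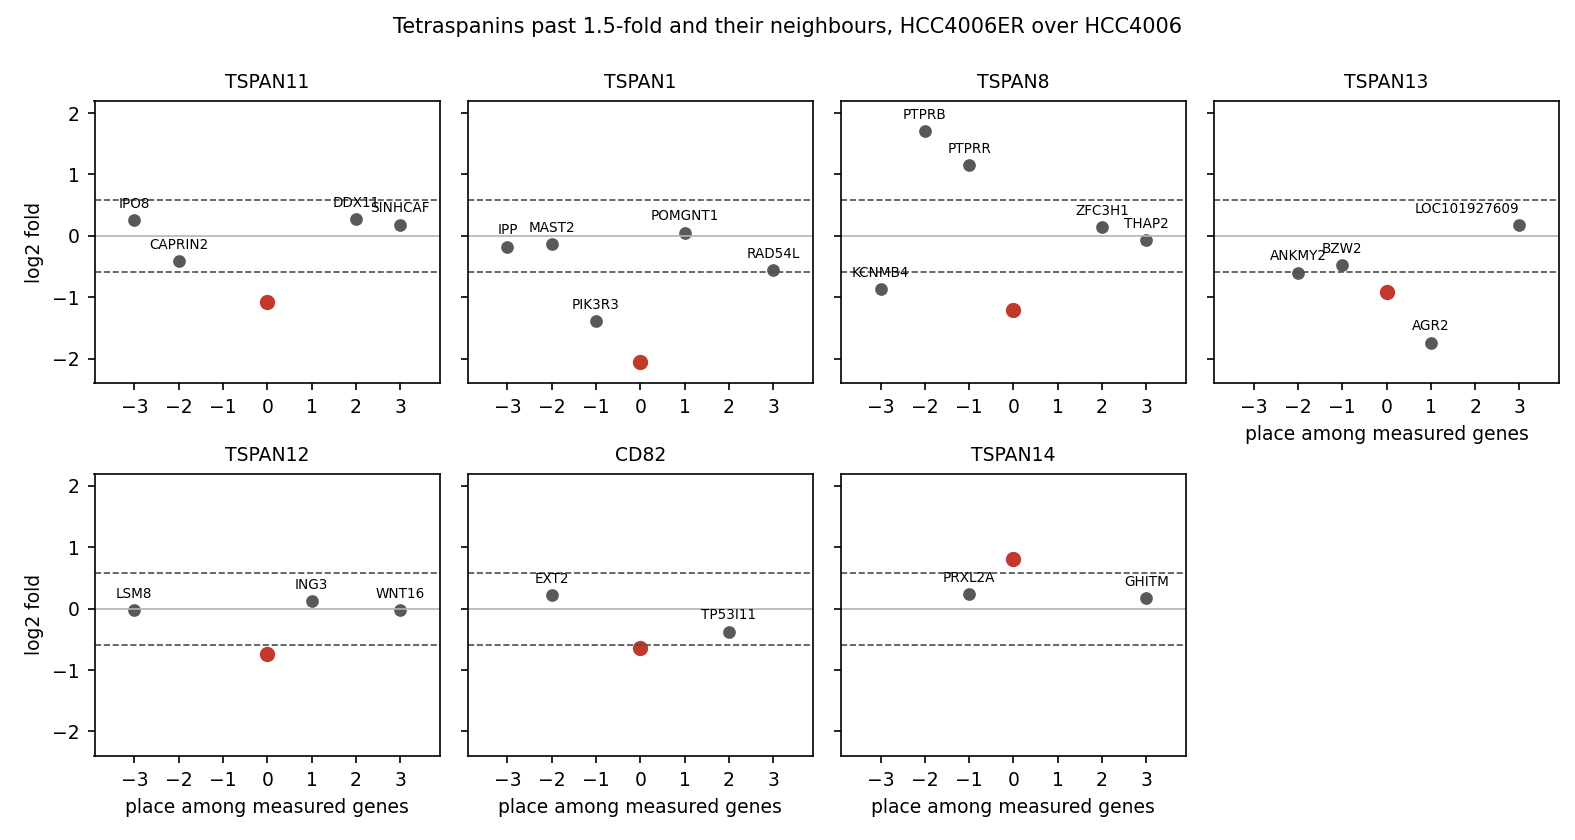
Log2 fold, HCC4006ER over HCC4006, with dim signals at the background level, for the 7 tetraspanins past 1.5-fold (red, at place 0) and those of their 3 nearest measured genes on each side that were above background (grey); the horizontal axis gives the place in gene order, not distance. Dashed lines mark 1.5-fold; AGR2 beside TSPAN13 and PIK3R3 beside TSPAN1 lie under the lower line, and PTPRB and PTPRR beside TSPAN8 above the upper one.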

How the data were processed

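RNA of HCC4006ER and HCC4006 cells was hybridized to 1 array each. The authors deposited 1 MAS5 signal intensity per probe set, on a linear scale without detection calls; per the labels, GCOS 1.4 was also used. All 54675 probe sets had a value, and after trimming 2% from both tails each array averaged 500.1. The number of arrays limits the precision. Gene names came from the platform annotation, in which 41097 probe sets had 1 symbol, 1801 had several and 11777 were not listed, and only the first were used. Median scaling moved log2 folds up by 0.14 and was kept as an alternative, with quantile normalization, other choices of probe set, other background levels, a filter on low signals and a 2-fold threshold.

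The members and gene lists were chosen with earlier results of these data known. Every tetraspanin is accounted for. Signals are given for members past 1.5-fold, for CD9, CD63, CD81, CD82, CD151 and the TspanC8 members, and for others by role; from the partner lists, members past 1.5-fold and ADAM10, ITGA3, ITGA6, ITGB1, IGSF8, PTGFRN and TM4SF1 are named, and the other partners, the neighbours and the E-box counts were named after their values were seen. Gene-level calls were checked on simulated signals, only for genes above background on both arrays and with true folds well past the threshold. That check did not cover folds near 1.5-fold or dim genes, and it gave no rate of false calls. Protein comparisons were not made. The work used Python 3.11.15, numpy 2.4.6, pandas 2.3.3 and matplotlib 3.10.9.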

Additional observations from a re-analysis of the deposited data

How the results depend on the processing

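The median log2 fold of the tetraspanins ran from -0.50 to -0.21 under the alternatives, always below that of all genes. Under median scaling it was -0.21 and that of all genes 0.10, and 37.4% of all calls were lower in place of 58.3% (880 genes lower and 1475 higher, in place of 1328 and 950). TSPAN1, TSPAN8 and TSPAN11 were lower past the threshold wherever they were counted, except that TSPAN11 drops out when both signals must be above background; under the other alternatives TSPAN11 ran from -2.80 to -0.94. TSPAN13 and TSPAN14 were lost only at 2-fold. CD82 was lost under 4 alternatives. TSPAN12 was lost at 2-fold and when each gene took its most divergent probe set, which for TSPAN12 lay under background. TSPAN9 passed with the mean over all probe sets. TSPAN3, at -0.56, was -0.02 with that mean, which includes 2 probe sets under background.

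With no background level 11 of 32 tetraspanins were lower and 3 higher, against 4550 and 2574 of all 19775 genes (23% and 13%). The added genes CD37, ROM1, TSPAN10, TSPAN18, TSPAN32, TSPAN33 and UPK1A all lay under background. At 2-fold 3 of 21 were lower and 0 higher, against 424 and 283 of all 11896 genes (3.56% and 2.38%). Over the 3 partner lists 2 of 34 genes were lower and 1 higher as reported (11.2% and 7.99% of all genes). With no background level 6 of 40 were lower and 3 higher (23% and 13% of all genes). With the mean over all probe sets 5 of 34 were lower and 4 higher (14.7% and 10.1% of all genes). Median scaling gave 2 of 34 higher (12.4% of all genes) and the most divergent probe sets 3 of 28 (12.8%). Without probe sets matching several transcripts, which drops RAB27A and STAM, 1 of 26 was lower and 0 higher (11.1% and 8.75% of all genes). At 2-fold 1 of 34 was lower and 0 higher (3.56% and 2.38% of all genes). The causes of these shifts were not tested. No paired analysis was possible because each cell line had 1 array.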
